A study of Rattus norvegicus with 3 samples.

Results

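The genes described here are 39 remodelling and histone acetylation genes, chosen by symbol: 26 genes of the BAF and PBAF complexes, 4 CHD remodellers, 5 deacetylases, 3 acetylases and the BET bromodomain reader gene Brd2. A gene has a peak when the authors' annotated table names it as the gene with the nearest transcription start site (TSS).

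Chromatin remodellers move or evict nucleosomes, and acetylases and deacetylases add or remove acetyl groups on the histones around which DNA is wound. The BAF and PBAF complexes share an ATPase, Smarca4 or Smarca2, and a core of common subunits, and are told apart by subunits of their own, such as Arid1a and the Dpf proteins in BAF, and Brd7, Arid2, Pbrm1 and Phf10 in PBAF. Several of these proteins, among them Smarca4, Chd7, Chd8, Hdac1 and Hdac2, are known from mouse work to be needed for oligodendrocyte differentiation. Brd7, a bromodomain subunit of PBAF, is named in the title of the series as a partner of Seh1, one of the nucleoporins that build nuclear pores.

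Seh1-bound chromatin was collected by antibody and sequenced (ChIP-seq) from immature oligodendrocytes (iOL) of rat after 1 day of triiodothyronine (T3) at 60 nM with PDGF-AA, bFGF and NT3 withdrawn, and from oligodendrocyte progenitor cells (OPC) of rat kept in PDGF-AA, CNTF, bFGF and NT3 without T3. An IgG library was made from iOL only and has no values here. All cells were cultured from Sprague Dawley rat forebrain of postnatal day 1 to 2; the labels name no genetic change. There was 1 library per group and thus no replicate error, so every value below describes a peak list and none carries a test. The lists held 6704 iOL peaks of 209 bp and 9117 OPC peaks of 205 bp on rat build rn6, of which 9084 OPC peaks are annotated. The sources used here give no read totals, so depth is unknown and the intervals below cover counting error only. Peak lists hold no expression values, so the labelled cell types could not be checked against marker genes.

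Of the 39 genes, 13 had an OPC peak, which is 33.3% (95% exact binomial interval 19.1 to 50.2%). Over 18533 coding genes with a curated RefSeq transcript, 30.1% had one, so the share of these genes lies near that of genes at large. Of the 39 genes, 37 have such a transcript in the current RefSeq table; Arid2 and Ep300 do not, and without them the share is 35.1% of 37. Together the 13 genes held 21 peaks. Within 10 kb of the TSS, 5 of the 39 genes had a peak (12.8%) against 11.1% of the coding genes, and within 1 kb 3 of 39 (7.69%) against 4.46%. The 3 genes with a peak within 1 kb of the TSS were Crebbp, Smarcd2 and Bcl7b.

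The stretches upstream of these 3 TSSs are shown because they are the promoters next to which a peak was called. They come from RefSeq on build GRCr8, read 5′ to 3′ on the strand of the gene, and CG dinucleotides stand in capitals. Each ends before the first annotated base of its gene. No rn6 genome was used, so the peaks' own sequence is not shown, and the TSS in GRCr8 is not shown to be the one used in rn6.
Crebbp, chr10:11842090-11842306, plus strand: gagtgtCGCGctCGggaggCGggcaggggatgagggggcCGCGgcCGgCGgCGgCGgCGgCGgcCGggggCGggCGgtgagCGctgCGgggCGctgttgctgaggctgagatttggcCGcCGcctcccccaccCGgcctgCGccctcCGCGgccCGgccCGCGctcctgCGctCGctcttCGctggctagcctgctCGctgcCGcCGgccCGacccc
Smarcd2, chr10:91702409-91702658, minus strand: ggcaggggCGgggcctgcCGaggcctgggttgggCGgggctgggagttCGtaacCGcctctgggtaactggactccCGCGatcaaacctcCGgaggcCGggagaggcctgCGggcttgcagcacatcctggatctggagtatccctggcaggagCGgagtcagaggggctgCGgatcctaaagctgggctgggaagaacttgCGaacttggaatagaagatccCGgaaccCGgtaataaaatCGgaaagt
Bcl7b, chr12:27146632-27146881, minus strand: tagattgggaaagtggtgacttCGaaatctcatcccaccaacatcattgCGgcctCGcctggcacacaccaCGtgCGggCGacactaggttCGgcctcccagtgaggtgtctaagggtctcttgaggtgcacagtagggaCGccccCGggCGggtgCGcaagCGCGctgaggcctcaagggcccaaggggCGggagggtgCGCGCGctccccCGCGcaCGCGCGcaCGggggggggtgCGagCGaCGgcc
The Crebbp stretch of 217 bases holds 34 CG dinucleotides at 81.6% G and C, the Smarcd2 stretch of 250 bases holds 16 at 62.4%, and the Bcl7b stretch of 250 bases holds 26 at 68.4%. Over the 250 bases before the TSS, 32 of the 39 genes had an entry, with a median of 22.5 CG dinucleotides, against a median of 12 over 15159 coding genes. Unlike the printed stretches, these 250 bases were not cut at the first annotated base of the gene. Crebbp therefore counts here with 43 CG dinucleotides in 250 bases. Among the 39 genes, the 12 with both an entry and an OPC peak had a median of 21.5 and the 20 without a peak 22.5, and these medians lie close together. The E-boxes CAGCTG and CATATG, the form bound by Olig2-type factors, were sought as these letters, which read the same on both strands. Neither was found in the 3 stretches or in the 12 promoters of genes with a peak. CAGCTG was found in 4 of the 32 promoters (12.5%) against 12.1% of 15159, and CATATG in 1 of 32 (3.12%) against 2.39%. All of these belong to the 20 genes without a peak, at 20% for CAGCTG and 5% for CATATG. This difference was not tested. Only 3 of the 12 genes with a peak had one within 1 kb of the TSS, so the 12 promoters are mostly not next to a peak.

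Both ATPase genes had a peak inside the gene. With 2 genes the exact interval on this share, 15.8 to 100%, spans the 30.1% of coding genes with a peak. Smarca4, which codes for the motor Brg1, had 1 in exon 4 of 34, 19.4 kb downstream of its TSS (chromosome 8, 22667659 to 22667863), with a score of 7.66. The score is the authors' peak caller's value per peak, with no definition in the header, and its median over all annotated OPC peaks is also 7.66. Smarca2, the gene of the alternative motor Brm, had 1 peak in intron 29 of 33, 154.0 kb downstream of its TSS (chromosome 1, 244769700 to 244769904, score 7.66). Neither ATPase gene had a peak assigned to it within 10 kb of the TSS.

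Of the 12 genes of subunits shared by BAF and PBAF, 3 had a peak (25%). The exact interval, 5.49 to 57.2%, spans the 30.1% of coding genes with a peak. Smarcd2, the gene of the subunit BAF60b, had 2 peaks that flank its TSS. One lay in the promoter at -769 bp (chromosome 10, 94461399 to 94461603, score 7.66) and the other in intron 1 of 12 at 383 bp (94460247 to 94460451, score 7.02). They start 1152 bp apart, the closest pair among the 39 genes. Bcl7b, the gene of a small BAF subunit, had 1 peak in the 5′ UTR, in exon 1 of 6, at 293 bp (chromosome 12, 24556698 to 24556902, score 7.02). Actl6a, which codes for an actin-like subunit found in progenitors of neurons, had 1 peak between genes, 35.1 kb upstream, in a repeat of the type RMER1A (chromosome 2, 119077585 to 119077789). Its score of 8.94 was the highest among the 21 peaks, shared with 1 peak of Bcl11b. Smarcb1, Smarcc1, Smarcc2, Smarcd1, Smarcd3, Smarce1, Actl6b, Bcl7a and Bcl7c had no peak.

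Genes of BAF subunits not found in PBAF, called BAF-only here, held most of the peaks, 11 of 21, in 5 of 7 genes. That share of genes, 71.4%, has an exact binomial interval of 29.0 to 96.3%, which spans the 30.1% of coding genes with a peak. Bcl11b, a zinc finger transcription factor that joins BAF, had 5 peaks over 221.2 kb of chromosome 6. It alone of the 39 genes had 5 or more (2.56%, exact interval 0.0649 to 13.5%), which spans the 0.685% of coding genes. Of the Bcl11b peaks, 3 lay in intron 2 of 3, at 15.0, 25.5 and 37.6 kb from the TSS, with scores of 6.38, 7.66 and 7.66. The other two lay between genes, at -50.2 kb (131976372 to 131976576, score 6.38) and at 170.8 kb (131755417 to 131755621, score 8.94). Dpf3, the gene of a PHD finger subunit that reads modified histones, had 3 peaks over 229.3 kb. They lay between genes at -8.21 kb (chromosome 6, 106979357 to 106979561, score 6.38), in intron 1 of 8 at 64.3 kb (score 7.66) and in intron 6 of 8 at 220.8 kb (score 8.3). Its relative Dpf1, whose protein belongs to the BAF complex of neurons, had 1 peak in intron 9 of 11 at 6.51 kb (chromosome 1, 87254901 to 87255105, score 8.3). The third relative, Dpf2, had none.

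Arid1a, which codes for the large DNA-binding subunit that defines BAF, had 1 peak, 34.3 kb upstream of its TSS and outside any gene (chromosome 5, 151981891 to 151982095), with a score of 8.3. Ss18, the BAF subunit gene that is fused in synovial sarcoma, had 1 peak in a simple repeat between genes, 372.3 kb downstream (chromosome 18, 5710621 to 5710825), with a score of 6.38. This was the farthest peak from its TSS among the 21. Arid1b, the alternative to Arid1a, had none. The number of peaks nearest to a gene can grow with the length of genome around it, which was not measured here. Bcl11b and Dpf3 hold 8 of the 11 peaks of BAF-only genes.

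Among genes of PBAF-only subunits, Brd7 had a peak and Arid2, Pbrm1 and Phf10 had none. Counting Arid2, that is 1 of 4 (25%, exact interval 0.631 to 80.6%), which spans the 30.1% of coding genes. The Brd7 peak lay between genes, 42.0 kb upstream of the TSS (chromosome 19, 19630725 to 19630929). Its score of 6.38 was the lowest value among the 21 peaks, held by 6 of them, and its focus ratio, a fraction the caller gives per peak, was 0.917 against a median of 0.778 over the list. Brd9, a bromodomain gene of the noncanonical BAF complex, and Brd2, a bromodomain gene of the BET family, had no peak. Bromodomains also occur in the products of Smarca2, Smarca4, Pbrm1, Crebbp, Ep300 and Kat2b, which are described with their own roles.

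**Figure D1:**
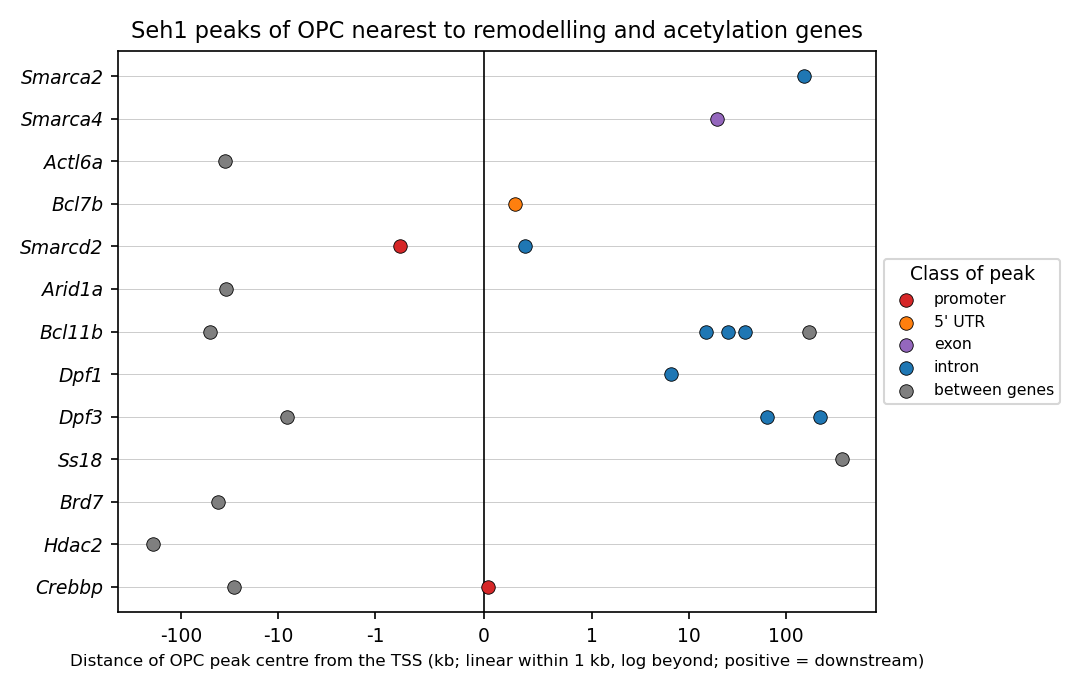
Each point is 1 OPC peak, placed by the distance of its centre from the TSS of the nearest gene (kb, linear within 1 kb and log beyond) in the row of that gene, with its class by colour. Points within 1 kb of the TSS are seen for Crebbp, Smarcd2 and Bcl7b alone among the 13 genes, and the 5 peaks of Bcl11b spread from -50.2 to 170.8 kb.

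None of the 4 CHD genes had an OPC peak: Chd3 and Chd4, which code for ATPases of the deacetylase complex NuRD, and Chd7 and Chd8, which code for remodellers active in the oligodendrocyte lineage. A count of 0 of 4 says little about CHD genes at large. Of 6 others of the family, 4 had a peak (66.7%, exact interval 22.3 to 95.7%, against 30.1% of coding genes). These were Chd1 (intron 25 of 34, 46.5 kb), Chd5 (intron 2 of 41, 12.3 kb, and 51.6 kb), Chd2 (-140.3 and -153.1 kb) and Chd6 (-161.7 and -465.2 kb). The peaks of Chd2 and Chd6 lay in annotated repeats, and none of these CHD peaks lay within 10 kb of a TSS. One Chd6 peak, in a LINE repeat, had a score of 12.8, above every peak of the 39 genes.

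Of the 5 deacetylase genes only Hdac2 had a peak (20%, exact interval 0.505 to 71.6%, against 30.1% of coding genes). The Hdac2 peak lay between genes, 196.1 kb upstream of the TSS, in an LTR repeat (chromosome 20, 43304147 to 43304351), with a score of 6.38. Hdac1, the close relative of Hdac2, had none, nor had Hdac3, another class I gene, or the class IIa genes Hdac4 and Hdac9. Of the 9 other deacetylase genes, Hdac11 alone had peaks, at 40.5 and 68.3 kb (11.1% of genes, exact interval 0.281 to 48.2%).

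Of the 3 acetylase genes, Crebbp had 2 peaks, while Ep300, its close relative, and Kat2b had none. Counting Ep300, 33.3% of these genes had a peak (exact interval 0.84 to 90.6%), against 30.1% of coding genes. Crebbp codes for the acetylase CBP, a coactivator of many transcription factors. One of its peaks was centred 45 bp downstream of the TSS (chromosome 10, 11594987 to 11595191) with a score of 8.3, the peak nearest to a TSS among the 21. The other lay between genes at -28.8 kb (11566163 to 11566367, score 7.02). Focus ratios of the Crebbp peaks were 0.929 and 0.917, and the first was the highest among the 21, whose ratios started at 0.647. The absence of a peak at Ep300 or Arid2 cannot be read as absence of Seh1, since the table names genes by curated transcripts and these genes have none in the current RefSeq table. Nor can it be so read at the other genes without a peak. A peak is assigned only to the gene with the nearest TSS, and depth and the threshold for a peak are not known.

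The other genes of these families, a list of 50, had an OPC peak in 16 (32.0%), against the 30.1% of coding genes. Within 10 kb of the TSS there were 6 of 50 (12%), near the 11.1% of coding genes. Ep400, the motor gene of an acetylase and remodelling complex, had a promoter peak at 99 bp with a score of 8.3. Kat2a, the gene of the acetylase Gcn5 and the relative of Kat2b, had a peak in exon 2 of 18 at 555 bp with a score of 8.94. Brd1, a bromodomain scaffold of acetylase complexes, had one in a CpG island in intron 1 at 876 bp. Bcl11a, the relative of Bcl11b, had one in a CpG island at -1436 bp and 7 in all, up to 918.7 kb from its TSS, the most in either list. Bicra, a gene of noncanonical BAF, had peaks at 7589 bp and -9682 bp, and the BET gene Brd3 had one at -8793 bp. The relatives Bcl11a and Bcl11b thus both had 5 or more peaks; that pair was picked after its values were seen.

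**Figure D2:**
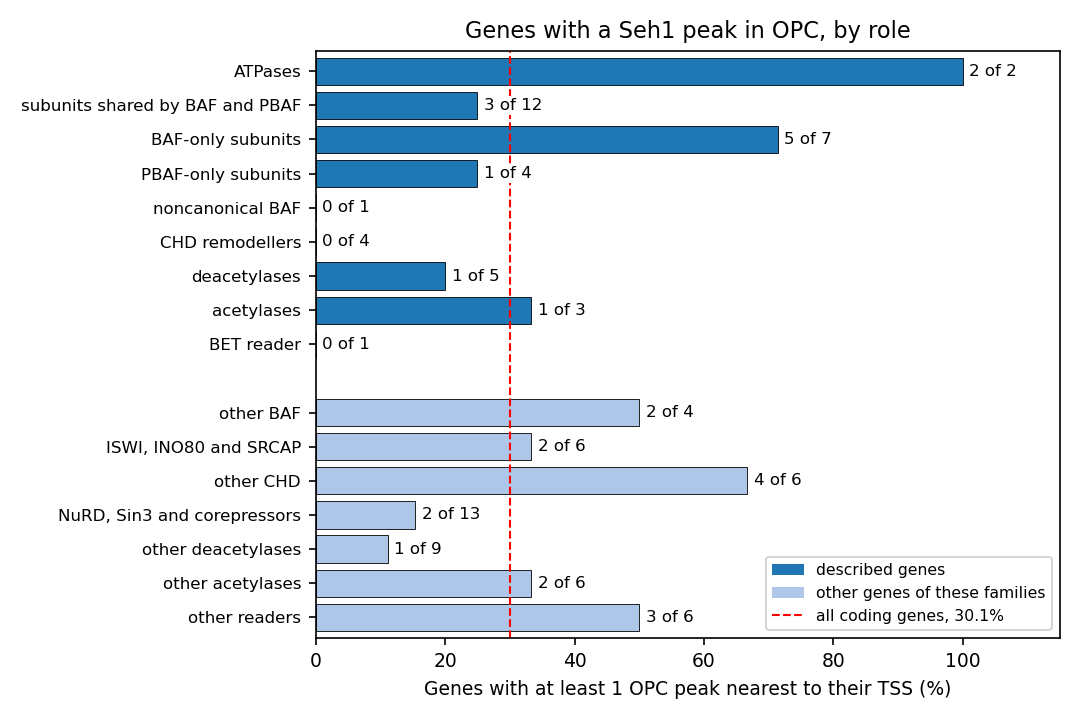
Bars give the percentage of genes of each role with at least 1 OPC peak nearest to their TSS, with the counts beside them, for the 39 described genes (dark) and the 50 other genes (light); the dashed line marks 30.1% of coding genes. Most roles hold under 10 genes, so that 1 gene moves a bar widely: BAF-only genes stand at 5 of 7, CHD genes at 0 of 4 and other CHD genes at 4 of 6.

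The 21 peaks scored near the middle of the list. Their scores ran from 6.38 to 8.94 with a median of 7.66, the same as the median over all annotated OPC peaks. Below the median score stood 9 of the 21 (42.9%) against 48.1% of the list. The highest of the 21 scores was 8.94, and 8.99% of all annotated OPC peaks scored above it. That cut was taken from the 21 peaks, so by construction none of them lies above it. At 7.02 stood 3 of the 21 peaks (14.3%) against 29.5% of the list, and at 6.38 stood 6 of 21 (28.6%) against 16.7%. The other levels held 28.6% against 24.3% at 7.66, 19% against 11.4% at 8.3, and 9.52% against 7.21% at 8.94. These differences were not tested. Scores fall in steps of about 0.64, so that neighbouring levels differ by 1 step. By place, 9 of the 21 lay between genes (42.9%) against 56.7% of the list, 8 in introns (38.1%) against 29.4%, 2 at promoters (9.52%) against 4.02%, 1 in an exon (4.76%) against 6.8%, and 1 in a 5′ UTR (4.76%) against 0.705%. The interval on the first of these shares, 21.8 to 66.0%, spans the share of the list. So do the intervals on the others, such as 0.12 to 23.8% for the 1 peak in a 5′ UTR. In annotated repeats lay 3 of the 21 peaks (14.3%, exact interval 3.05 to 36.3%), those of Actl6a, Hdac2 and Ss18, against 33.2% of the list.

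**Figure D3:**
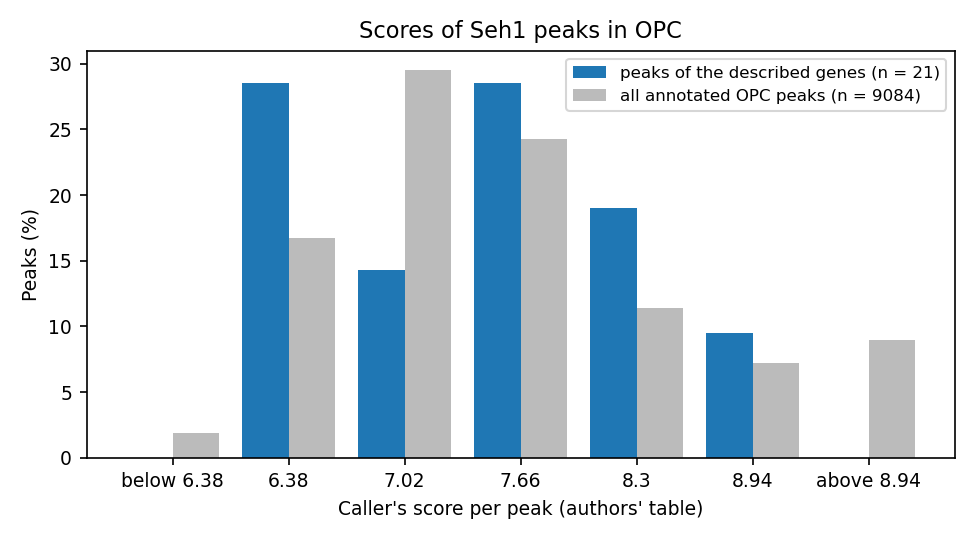
Bars give the percentage of peaks at each level of the caller's score, for the 21 peaks of the described genes (left of each pair) and all 9084 annotated OPC peaks (right). The 21 peaks fill the levels from 6.38 to 8.94. Both outer bins start beyond that range, so they hold none of the 21 by construction.

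No peak of the 39 genes was called in both stages. Of the 21 OPC peaks, 0 overlapped an iOL peak by 1 bp or more, which allows a share of up to 14.3%, against 1.73% of all annotated OPC peaks. A count of 0 among 21 is thus not distinguishable from the list at this number of peaks. The gap to the nearest iOL peak ran from 2.27 to 511.3 kb with a median of 82.7 kb, against 88.3 kb over the list. Within 10 kb of an iOL peak lay 2 of the 21 (9.52%) against 10.3%, and within 50 kb 7 of 21 (33.3%) against 34.9%. The closest was the upstream Bcl11b peak at -50.2 kb, with an iOL peak 2.27 kb away (131978848 to 131979056). The next was the Dpf1 intron peak, with an iOL peak 7.10 kb away on chromosome 1 (87262208 to 87262416).

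For Brd7 the nearest iOL peak was 22.6 kb from the OPC peak, and for Bcl7b 29.7 kb. For the promoter peak of Crebbp the gap was 383.0 kb, for the peaks of Smarcd2 at least 111.5 kb, and for the exon peak of Smarca4 132.8 kb. The genes with an OPC peak within 1 kb of the TSS therefore had no iOL peak within 29 kb of that peak. That limit was set by the Bcl7b gap. Over all annotated OPC peaks, 25.2% had an iOL peak within 31.6 kb, so most of the list lacked one at that distance too.

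**Figure D4:**
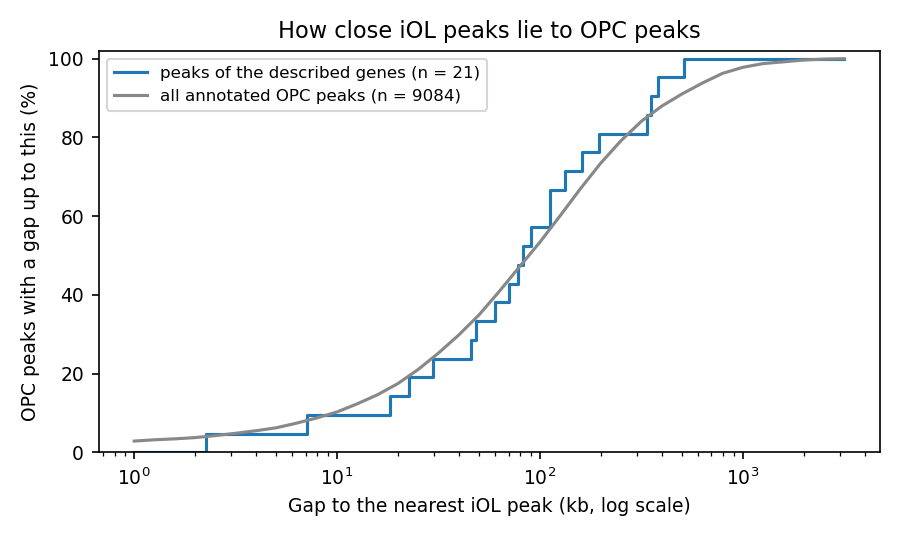
Lines give the percentage of OPC peaks whose nearest iOL peak lies within the gap on the x axis (kb, log scale from 1 kb), for the 21 peaks of the described genes (blue steps) and all 9084 annotated OPC peaks (grey). The lines run close to each other, with medians of 82.7 and 88.3 kb.

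The iOL list has no annotation here, so an iOL peak could be tied to a gene only where it lay between OPC peaks of that gene. Of the 39 genes 4 had 2 or more OPC peaks, which is 10.3%, against 10.4% of coding genes. Bcl11b and Dpf3 each had 2 iOL peaks between their outermost OPC peaks, and Crebbp and Smarcd2 had 0. Over the 1929 coding genes with 2 or more OPC peaks, 31.8% had an iOL peak in between. At Bcl11b the iOL peaks lay at -45.4 kb (chromosome 6, 131971520 to 131971728) and 125.1 kb (131801114 to 131801322) from the TSS. At Dpf3 they lay at 82.8 kb (106888335 to 106888543) and 167.6 kb (106803557 to 106803765). That these iOL peaks lie among the OPC peaks follows from how they were selected. At Dpf3 both stand in the gap between the OPC peaks at 64.3 and 220.8 kb. Bcl11a, of the other list, had 4 iOL peaks between its 7 OPC peaks.

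**Figure D5:**
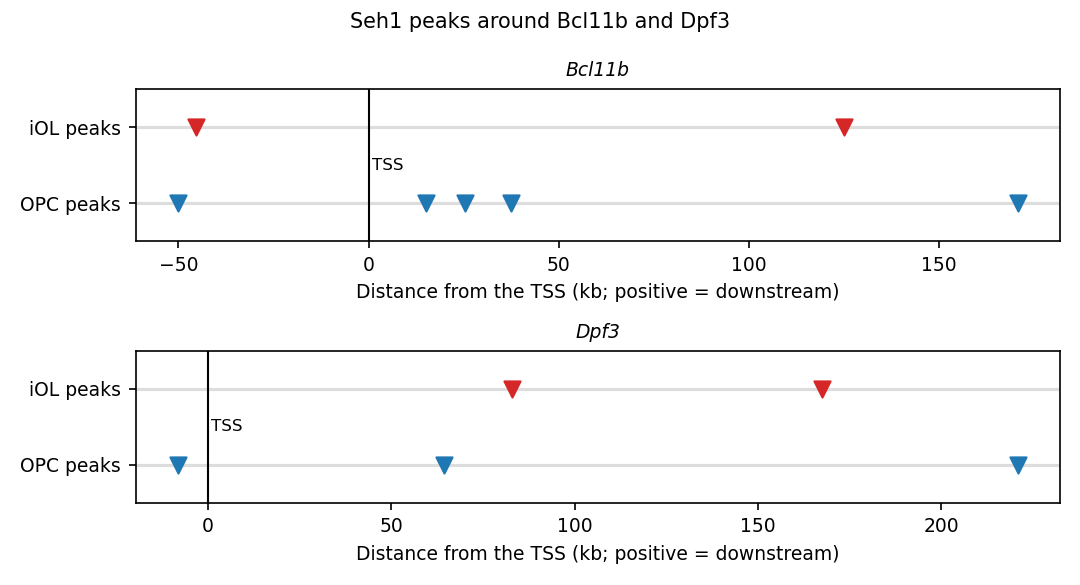
Triangles mark iOL peaks (upper row) and OPC peaks (lower row) by distance from the TSS in kb, for Bcl11b with 2 iOL and 5 OPC peaks and for Dpf3 with 2 iOL and 3 OPC peaks. No triangle of one row stands at the place of one in the other row; only iOL peaks between the outermost OPC peaks are drawn.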

How the data were processed

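Seh1 ChIP-seq was done on rat iOL and OPC, 1 library each, after fixation in 1% formaldehyde (10 min), per the labels' protocols. The submitters' processing notes name Bowtie2 and HOMER with no version or role, and name build rn6, as the file headers do. The sources used here do not give the threshold for a peak or how reads with several matches were handled, which could move peaks in repeats.

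The authors deposited peak positions per library and 1 annotated table. Per the file headers, HOMER's annotatePeaks.pl wrote that table for Seh1 peaks of OPC, with the IgG of iOL in the file name, although it is recorded under the iOL library. All 9084 of its intervals equal OPC intervals and 0 equal iOL intervals, so it was used for OPC. Its score and its focus ratio, a fraction from 0 to 1, are the deposited values of the authors' caller. Of 2 columns named alike that repeat the class, the second matches the main class for 41.0% of peaks and was not used.

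Genes were matched by numeric ID to RefSeq genes of GRCr8: all 39 genes matched, and 99.2% of the table's rows. GRCr8 served for names, curated transcripts and promoter sequence only. All nearest transcripts in the table were curated RefSeq entries. Stages were compared by overlap of at least 1 bp and by the gap between intervals. The TSS of a gene with 2 or more peaks was inferred from their signed distances, to within 2 bp. Intervals on shares are exact (Clopper-Pearson) at 95%; a count of 0 allows up to 3 counts of the total. The overlap and TSS steps were tested on simulated data. Python 3.11.15, pandas 2.3.3 and SciPy 1.17.1 were used.

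The 39 genes, their roles and the list of 50 were chosen with earlier results of these data known. All of the 39 genes with a peak are named with their peaks; of the 50, those with a peak within 10 kb are named, and CHD genes, Hdac11 and the peaks of Bcl11a beyond that distance were added after seeing values. Alternatives were a distance limit, a score threshold, leaving out repeats, and other definitions of a shared peak. Peaks inside a gene but nearest to another were also looked for, and some of them are not reported here.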

Additional observations from a re-analysis of the deposited data

How the results depend on the processing

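The number of genes with an OPC peak was 13 of 39. It was 10 with peaks within 50 kb of the TSS (22.1% of coding genes), 9 with peaks at or above the median score (18.8%) and 10 without peaks in annotated repeats (22.7%). The 21 peaks fell to 12 at or above the median score. The 5 genes with a peak within 10 kb of the TSS fell to 3 within 3 kb and to 3 at or above the median score, where the fewer peaks left account for the lower counts by construction. With a gap of up to 10 kb counted as shared, 2 peaks were shared in place of 0; with a gap of up to 1 kb, or with 50% of the OPC peak covered, the count stayed at 0. The median score stood at 7.66 within 50 kb and without repeats, and at 7.98 above the threshold that defines it. Of the 50 other genes, 12 to 13 had a peak under the limits of distance, score and repeats, against 16. Counting peaks inside a transcript as well, a setting chosen after seeing the data, gave 22 peaks in 13 genes, against 21 in 13, and 17 of the 50 other genes. The share of coding genes under that setting is not given here. No paired analysis was possible because each group has 1 library. For the same reason no library could be left out, and depth is unknown.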

Other observations

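OPC peaks inside a gene but nearest to the TSS of another were looked for in the list of 50 genes. Brpf1, the scaffold gene of an acetylase complex, had no peak assigned to it but held 1 in exon 8 of 13 (score 8.94), assigned to Ogg1. Chd6 held 1 in its 3′ UTR, in exon 37 of 37, assigned to Emilin3, and Chd2 held 1 in intron 38 of 38, assigned to Rgma. Counted this way, 17 of the 50 genes held or neighboured an OPC peak. The share of coding genes counted in the same way is not given here, so this count has no background to be read against.

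The second of the 2 Bicra peaks, in a satellite repeat at -9682 bp, overlapped an iOL peak by 152 bp. It was the only peak of the list of 50 called in both stages, 1 of 31 (3.23%). The exact interval, 0.0816 to 16.7%, spans the 1.73% of all annotated OPC peaks.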
